A study of Arabidopsis thaliana with 26 samples.

Results

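HHO1 (AT3G25790), HHO2 (AT1G68670), HHO3 (AT1G25550) and HRS1 (AT1G13300) are 4 closely related Arabidopsis genes for transcription factors, and they were followed in roots over the opening 20 min after transfer to nitrate. They make up 4 of the 22746 probe sets tested. HHO1 was read from probe set 257645_at, HHO2 from 262284_at and HHO3 from 255734_at, each through the gene that the platform annotation lists for it. HRS1 was taken to be probe set 259365_at. The annotation used here lists no gene for that probe set, so its identity rests on the rule by which the 4 were chosen and not on the files.

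The proteins belong to the GARP family, whose DNA-binding domain is related to that of MYB factors and is shared with the phosphate starvation regulator PHR1 and the type B response regulators of cytokinin signalling. HRS1 is named for a root growth response to low phosphate, and the HHO genes for their homology to it. The group, also called NIGT1, is known as a set of nitrate-inducible repressors that act downstream of the NLP factors and bind the promoters of genes of high-affinity nitrate uptake.

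Roots came from wild-type Columbia plants grown in hydroponics for 14 days on ammonium as the nitrogen source, then kept for a day in medium without nitrogen under continuous light. Time 0 roots were harvested before any salt was given. All other plants were moved to fresh medium of the same kind holding 1 mM KNO3 or, as the mock treatment, 1 mM KCl, and roots were taken every 3 min up to 15 min and once more at 20 min. The 13 groups held 2 ATH1 arrays each, 26 in all, which the methods call biological replicates, so every mean below has n = 2 and every p-value rests on the spread pooled over the 13 groups.

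Each value is a MAS5 signal, the scaled brightness of a set of short oligonucleotides for 1 transcript, and signals of different probe sets are not on a common scale. The 8 arrays at 3 and 6 min differed from the other 18. The mean log2 signal of their bacterial spike-in transcripts was 12.23 to 13.08 against 9.68 to 10.9, and the 25th percentile of all signals was 76.3 to 111 against 48.5 to 64.1. Replicates also correlated less on the 8 arrays (median r 0.928) than on the 18 (0.962). Comparisons of 3 or 6 min with time 0 therefore set arrays of one kind against the other, and the time and the kind of array cannot be told apart there. KNO3 and KCl were compared within 1 kind of array at every time point. The root hair expansin genes EXPA7 and EXPA18 were the 2 of 15 root markers whose names the annotation used here lists, with signals of 516 to 1320 and 462 to 1380 over the 26 arrays. Neither passed between KNO3 and KCl. The log2 differences of EXPA7 at 6, 9 and 20 min were 0.59, 0.52 and -0.60 (adjusted p = 0.17, 0.37 and 0.20 from limma). Those of EXPA18 at 3, 9 and 20 min were 0.47, 0.51 and -0.54 (adjusted p = 0.32, 0.63 and 0.67). In KCl, EXPA7 was lower than at time 0 at 9 min (-0.90, adjusted p = 0.016). Across the 2 kinds of array, EXPA18 was lower in KCl at 3 and 6 min (-0.88 and -0.94, adjusted p = 0.0051 and 0.0028). There 37.6% and 41.4% of all probe sets were called. Of 15 shoot markers, 2 were named. YAB3, a leaf polarity gene, lay between 15 and 170, and RCA, the Rubisco activase gene of green tissue, had a median of 231 and a highest signal of 1580, with a log2 difference of 1.61 at 15 min (adjusted p = 0.25). Of the 24 values of these 4 markers between KNO3 and KCl, 7 had an unadjusted p under 0.05 in limma. The share of all probe sets past that threshold ran from 6.21% at 20 min to 15.5% at 3 min.

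**Figure D1:**
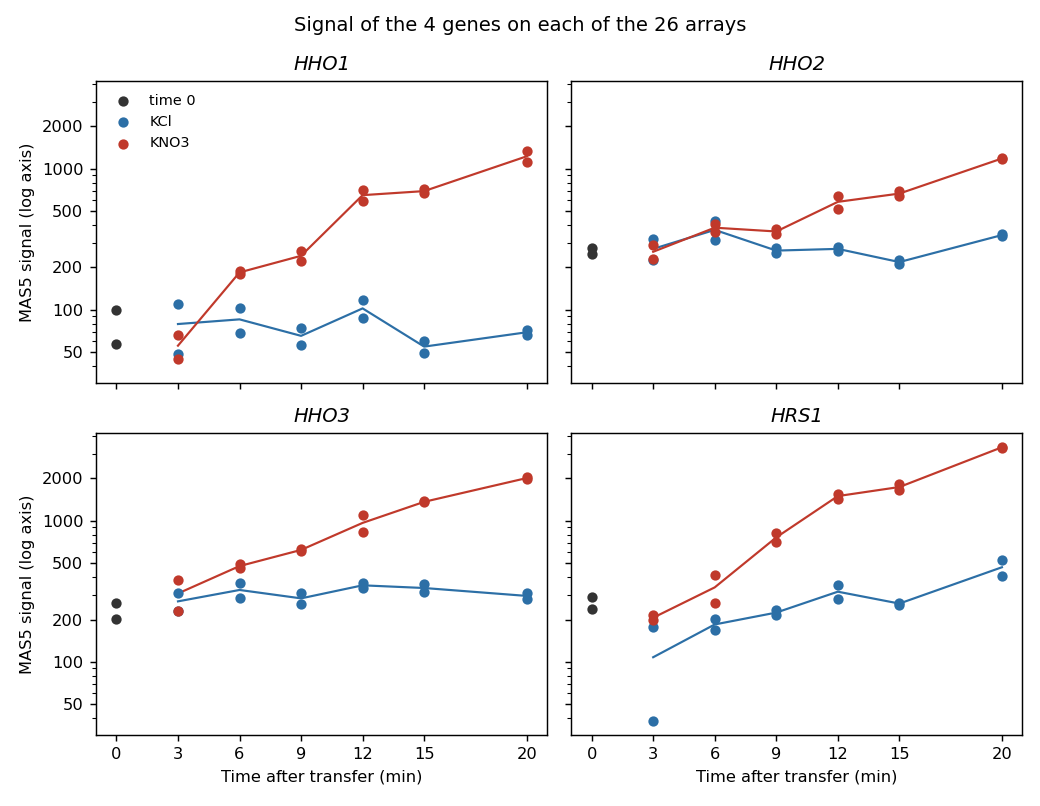
MAS5 signal (log axis) of each gene on each of the 26 arrays against minutes after transfer. Each point is 1 array, black for time 0, blue for KCl and red for KNO3, and the lines join the means of 2 arrays. From 9 min on, both KNO3 arrays lay above both KCl arrays for all 4 genes, and the single lowest point of HRS1 is the KCl array at 3 min with a signal of 38.1.

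HHO1, a repressor in the nitrate and phosphate responses of the root, was dim before nitrate and had the largest log2 difference from KCl of the 4 genes at 20 min, a difference between genes that was not tested. With 32 added to each signal, the log2 change from time 0 to 20 min with KNO3 was 3.53 for HHO1 and 3.52 for HRS1, so these 2 are not ordered against time 0. The time 0 arrays gave 57.4 and 99.7 (mean 78.6 ± 29.9, SD, n = 2), at the 26.7th and 35.6th percentile of all probe sets of the array. The 12 KCl arrays ran from 48.9 to 117 with a median of 70.5, and 3 of them lay below the 25th percentile of their array. The fold changes of HHO1 are for this reason less precise in size than in direction. With KNO3, the arrays gave 45 and 66.6 at 3 min, 189 and 180 at 6 min and 221 and 263 at 9 min. They gave 593 and 710 at 12 min, 677 and 715 at 15 min, and 1331 and 1126 at 20 min. The 3 min arrays overlapped with KCl, and from 6 min on each KNO3 array lay above the highest of the 12 KCl arrays. At 20 min the mean was 1229 ± 145 (SD, n = 2), 15.6 times that of time 0, and the gene had moved to the 88.3rd and 85.9th percentile of its arrays. In roots taken whole, more transcript per cell and more cells with the transcript cannot be told apart.

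The log2 difference between KNO3 and KCl for HHO1, with a standard error of 0.36, did not pass the test across all probe sets at 3 min (-0.42, adjusted p = 0.64 from limma) or 6 min (1.14, adjusted p = 0.2). HHO1 was higher with KNO3 by 1.89 on the log2 scale at 9 min (adjusted p = 0.021), by 2.68 at 12 min (0.00032), by 3.67 at 15 min (3e-06) and by 4.14 at 20 min (2.7e-07). At 20 min HHO1 stood 5th from the top of the 22746 probe sets by log2 difference, and by the mean over the 6 time points (2.18, standard error 0.15, adjusted p = 2.8e-09) it stood 3rd. The call at 9 min was lost when any of the 4 arrays at 9 min was left out (adjusted p = 0.097 to 0.36 from limma), with log2 differences between 1.69 and 2.09, and also without the intensity trend in limma (adjusted p = 0.078, against 0.0021 to 0.078 over the 9 alternatives). Under quantile normalization the 6 min difference was 1.48 and passed (adjusted p = 0.036, against 0.036 to 1 over the 9 alternatives).

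HHO3, another repressor of the group, passed the test between KNO3 and KCl from 9 min on. The time 0 arrays gave 262 and 202 (mean 232 ± 43.1, SD, n = 2), near the middle of their arrays (54.5th and 49.4th percentile). The 12 KCl arrays ran from 231 to 363 with a median of 307. With KNO3, the arrays gave 382 and 230 at 3 min, 464 and 493 at 6 min and 637 and 609 at 9 min. They gave 1103 and 834 at 12 min, 1352 and 1380 at 15 min, and 1985 and 2043 at 20 min. From 6 min on the arrays of each KNO3 time point lay above those of every earlier time point and above all KCl arrays, so that the 5 KNO3 groups from 6 to 20 min did not overlap with their neighbours. The mean at 20 min was 2014 ± 40.9 (SD, n = 2), 8.68 times that of time 0.

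The log2 difference between KNO3 and KCl for HHO3 was 0.16 at 3 min and 0.57 at 6 min (adjusted p = 0.8 and 0.32 from limma). HHO3 was higher with KNO3 by 1.15 on the log2 scale at 9 min (standard error 0.21, adjusted p = 0.018), by 1.46 at 12 min (0.00097), by 2.03 at 15 min (7.3e-06) and by 2.78 at 20 min (3.7e-08), where it stood 23rd from the top by log2 difference. Its call at 9 min, like that of HHO1, was lost when any of the 4 arrays at 9 min was left out (adjusted p = 0.12 to 0.2 from limma, log2 differences between 1.03 and 1.27) and without the intensity trend (adjusted p = 0.094, against 0.002 to 0.094 over the 9 alternatives).

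HHO2, the repressor whose product is also known from phosphate-dependent root growth, had the smallest fold of the 4 at 20 min. The time 0 arrays gave 248 and 273 (mean 261 ± 17.4, SD, n = 2), at the 53.1st and 56.5th percentile. The 12 KCl arrays ran from 212 to 425 with a median of 277, and the highest of them was at 6 min. With KNO3, the arrays gave 287 and 230 at 3 min, 359 and 407 at 6 min and 344 and 376 at 9 min, all within the range of the KCl arrays. They gave 521 and 647 at 12 min, 643 and 694 at 15 min, and 1175 and 1196 at 20 min, all above it. The mean at 20 min was 1186 ± 15.2 (SD, n = 2), 4.55 times that of time 0, and the arrays at 12 and 15 min overlapped.

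The log2 difference between KNO3 and KCl for HHO2 was -0.06, 0.07 and 0.45 at 3, 6 and 9 min (adjusted p = 0.93, 0.96 and 0.56 from limma). HHO2 was higher with KNO3 by 1.1 on the log2 scale at 12 min (standard error 0.19, adjusted p = 0.0056), by 1.62 at 15 min (3.4e-05) and by 1.80 at 20 min (4.3e-06). Without KNO3 replicate 2 at 12 min, the 12 min difference was 0.94 and no longer passed (adjusted p = 0.15 from limma). Of the 9 alternatives at 12 min, 8 kept the call and the fit of that time point alone lost it (adjusted p = 0.098, lowest 0.00042).

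HRS1, the founding member of the group, passed the test from 12 min on. The time 0 arrays gave 237 and 288 (mean 262 ± 35.7, SD, n = 2), at the 52nd and 57.8th percentile. The 12 KCl arrays ran from 38.1 to 530 with a median of 244, the widest range of the 4 genes. The lowest value was that of KCl replicate 1 at 3 min, at percentile 14.1 of its array, while replicate 2 gave 178. With KNO3, the arrays gave 215 and 197 at 3 min, 412 and 264 at 6 min and 714 and 815 at 9 min. They gave 1441 and 1560 at 12 min, 1818 and 1661 at 15 min, and 3356 and 3303 at 20 min. From 9 min on all KNO3 arrays lay above the highest KCl array, and no neighbouring KNO3 time points overlapped. The mean at 20 min was 3330 ± 37.1 (SD, n = 2), 12.7 times that of time 0.

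The log2 difference between KNO3 and KCl for HRS1, with a standard error of 0.40, did not pass at 3 min (1.32, adjusted p = 0.087 from limma), 6 min (0.84, adjusted p = 0.49) or 9 min (1.77, adjusted p = 0.056). HRS1 was higher with KNO3 by 2.26 on the log2 scale at 12 min (adjusted p = 0.0075), by 2.74 at 15 min (0.0005) and by 2.84 at 20 min (0.00025). The residual standard deviation of HRS1 was 0.47 on the log2 scale, against 0.36 for HHO1, 0.22 for HHO3 and 0.17 for HHO2. Without the KCl array at 38.1 the 3 min difference was 0.21 and the 6 and 9 min differences passed (0.84 and 1.77, adjusted p = 0.037 and 5.9e-05 from limma). Without the other KCl array at 3 min the 3 min difference was 2.43, taken against the array at 38.1 alone. Leaving out either of these arrays also takes their disagreement out of the pooled spread. The p-values of HRS1 in such fits are lower for that reason at the time points other than 3 min. At 3 min the difference itself changes as well. Within the 18 arrays outside 3 and 6 min the 9 min difference passed (adjusted p = 2.3e-05, the lowest of 9 alternatives, of which 6 called it and the highest was 0.26). The 12 min call was lost without KCl replicate 1 or KNO3 replicate 2 of that time point (adjusted p = 0.092 and 0.12).

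**Figure D2:**
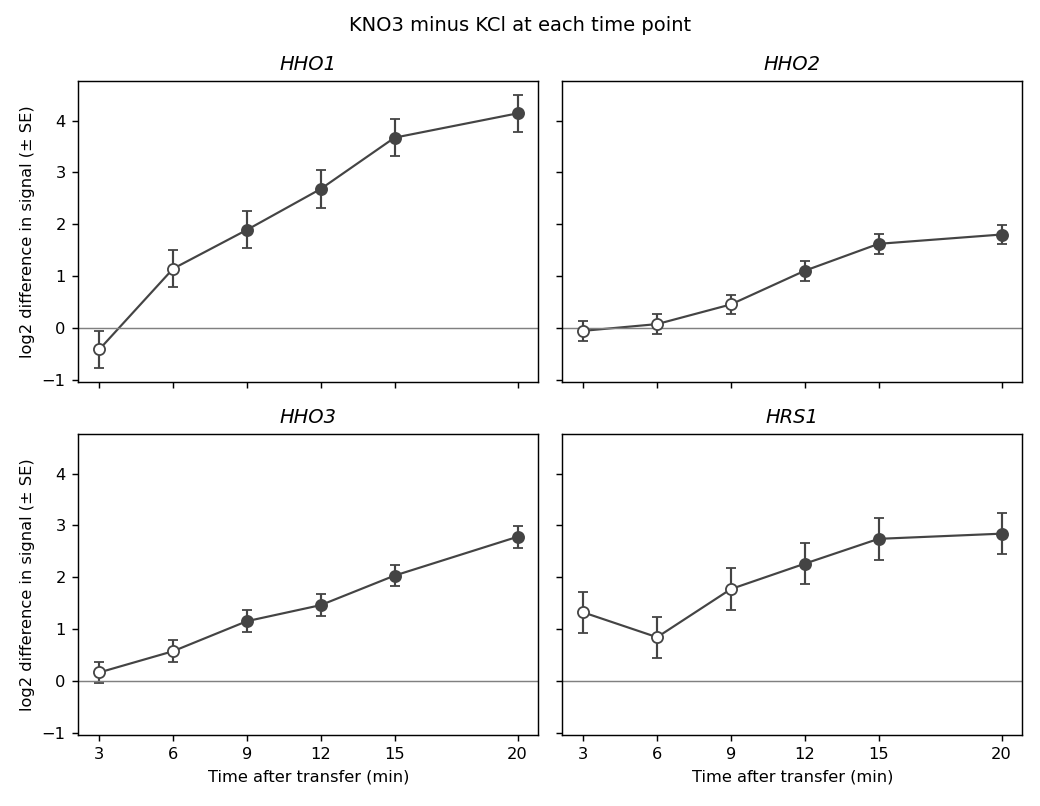
KNO3 minus KCl as a log2 difference in signal, with its standard error, against minutes after transfer, 1 panel per gene and 2 arrays per group. Filled points passed an adjusted p of 0.05 in limma and open points did not. HHO1 and HHO3 passed from 9 min and HHO2 and HRS1 from 12 min, and the differences at 20 min ran from 1.80 (HHO2) to 4.14 (HHO1).

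Counted together, none of the 4 genes passed at 3 min, where 2.28% of all probe sets did, and none at 6 min, where 0.413% did. At an unadjusted p of 0.05 in limma, 1 of the 4 passed at 3 min (HRS1, beside 15.5% of all probe sets) and 3 at 6 min (HHO1, HHO3 and HRS1, beside 9.86%). A sequential model patterned on that of the methods tested only probe sets that passed its first step. Its second step was a KNO3 minus KCl test at each time point, whereas the methods describe a fit with time 0 as baseline. Its calls differ from those the paper lists. On linear signals it called none of the 4 at either time. On log2 signals it called HRS1 at 3 min and HHO1 at 6 min, beside 39.3% and 14.9% of the 1974 probe sets it tested, and nothing is read from 1 of 4 genes there. At 9 min 2 of 4 were higher with KNO3 (0.396% of all probe sets called), while all 4 were higher at 12 min (0.69%), at 15 min (1.2%) and again at 20 min (0.743%). The median log2 difference of the 4 was 0.05, 0.71, 1.46, 1.86, 2.39 and 2.81 from 3 to 20 min, and the median over all probe sets stayed between -0.06 and 0.01. Averaged over the 6 time points, all 4 were higher with KNO3 (3.15% of all probe sets called), with log2 differences of 2.18 for HHO1, 1.96 for HRS1, 1.36 for HHO3 and 0.83 for HHO2. Differences between the 4 genes were not tested.

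By arrays alone, both KNO3 arrays lay above both KCl arrays for 1 gene at 3 min (HRS1) and for 3 at 6 min (HHO1, HHO3 and HRS1), against 15.6% and 14.5% of all probe sets. The same held for all 4 genes at the 4 later time points, against 19.3%, 20.9%, 20.2% and 16.8%. Onset was taken as the time from which a gene passed the test, higher with KNO3, there and at all later time points. By the test it was 9 min for HHO1 and HHO3 and 12 min for HHO2 and HRS1. By arrays that did not overlap from then on it was 3 min for HRS1, 6 min for HHO1 and HHO3 and 9 min for HHO2. At 3 min the KNO3 arrays of HRS1 (215 and 197) lay below both time 0 arrays (237 and 288). They were separated there from KCl arrays of 38.1 and 178. The comparison with time 0 crosses the kinds of array, so whether HRS1 had risen by 3 min cannot be told from it. The place of HRS1 in the order depends on the measure. Over all probe sets, 27 had an onset by the test at 9 min or before and 42 at 12 min or before, of 150 higher at 20 min. By arrays, 19 probe sets were separated from 3 min on and 77 from 6 min or before.

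At 15 min, KNO3 replicate 1 had a summed signal of the 2 shoot markers of 1621, the highest of the 26 arrays. The shoot sum was 189.1 to 503.5 on the KCl arrays, 268.8 to 285.1 at time 0 and at most 741.3 on the other KNO3 arrays, and that of the 2 root markers was 1233 to 2132 with KNO3 and 1143 to 2347 with KCl. Without that array the log2 differences at 15 min were 3.71 for HHO1, 1.67 for HHO2, 2.05 for HHO3 and 2.68 for HRS1, and all passed. The next highest shoot sum, 741.3, was that of KNO3 replicate 2 at 12 min, and without it the 12 min differences of HHO2 (0.94, adjusted p = 0.15) and HRS1 (2.2, adjusted p = 0.12) did not pass while those of HHO1 and HHO3 did. The part of the shoot markers in these values was not tested.

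Against time 0, which shares its 2 arrays among all time points and the KNO3 arrays with the comparisons above, none of the 4 genes passed with KNO3 at 3 min (23.6% of all probe sets called, and none of the 4 at an unadjusted p of 0.05 in limma). Without KNO3 replicate 2 of 3 min, HHO3 passed there (0.73, adjusted p = 0.023), and under quantile normalization HHO1 was lower (-1.11, adjusted p = 0.026, against 0.026 to 0.4 over the alternatives). At 6 min HHO1, HHO2 and HHO3 were higher (32.5%), with log2 changes of 1.28, 0.55 and 1.06, where the median over all probe sets was itself 0.25 (0.17 at 3 min). These values cross the 2 kinds of array. Under quantile normalization the changes of HHO1 and HHO2 were 0.67 and 0.41 and did not pass (adjusted p = 0.15 and 0.098). The call of HHO1 was also lost without time 0 replicate 1 (adjusted p = 0.14) or KNO3 replicate 1 of 6 min (0.057), and that of HHO2 without any of the 4 arrays compared (0.057 to 0.15). At 9 min HHO1 (1.67, adjusted p = 0.031) and HHO3 (1.44, adjusted p = 0.00089) were higher than at time 0 (0.506%), and the call of HHO1 was lost without time 0 replicate 1 (1.27, adjusted p = 0.57), either KNO3 array at 9 min or either at 20 min, under quantile normalization and without the intensity trend. HRS1 stood at 1.55 (adjusted p = 0.12) and passed without either KCl array of 3 min (0.00015 and 0.00017). At 12 min all 4 were higher (0.448%), as they were at 15 min (1.37%) and at 20 min (1.09%). At 12 min the call of HHO2 was lost without time 0 replicate 1 (1.09, adjusted p = 0.061) or KNO3 replicate 2 (1, adjusted p = 0.075). At 20 min the log2 changes were 4.02 for HHO1, 3.67 for HRS1, 3.13 for HHO3 and 2.19 for HHO2, with adjusted p-values between 5.4e-09 and 6.2e-06 from limma.

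Few calls were made between KCl and time 0. At 3 min HRS1 was lower than at time 0 by limma (log2 change -1.67, adjusted p = 0.0031, 37.6% of all probe sets called). Without the array at 38.1 the change was -0.56 and did not pass (adjusted p = 0.073), so the call rests on that array. At 6 min HHO2 was higher (0.49, adjusted p = 0.042, 41.4% of all probe sets called). That call was lost without either time 0 array, KCl replicate 2 of 6 min or either KNO3 array of 9 or 20 min (0.051 to 0.36), and it was not made under quantile normalization (0.27, adjusted p = 0.26). Also at 6 min, HRS1 was lower without either KCl array of 3 min (-0.51, adjusted p = 0.036 and 0.037) and HHO3 higher without either KNO3 array of 3 min (0.48, adjusted p = 0.037 and 0.036). Both time points cross the kinds of array, and the median over all probe sets was 0.20 at 3 min and 0.29 at 6 min. At 9 min none of the 4 genes passed (0.615%), nor did any at 12 min (0.391%), 15 min (0.769%) or 20 min (0.44%). At an unadjusted p of 0.05 in limma there were 0 at 9 min, 1 at 12 min and 1 at 15 min (HHO3 both times), and 1 at 20 min (HRS1). The shares of all probe sets at that threshold were 8.74%, 10.2%, 10.1% and 6.22% in turn.

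HRS1 with KCl at 20 min gave 530 and 409, above the 237 and 288 of time 0 and above every other KCl array. The log2 change was 0.83 (standard error 0.40, adjusted p = 0.79 from limma), and within the 18 arrays outside 3 and 6 min it passed (adjusted p = 0.012, against 0.012 to 1 over the 6 alternatives). It also passed without the array at 38.1 (adjusted p = 0.047). The KNO3 arrays of the same time point, at 3356 and 3303, lay above both. For the other 3 genes, the KCl values at 20 min were 66.4 and 72.5 for HHO1, 332 and 347 for HHO2 and 307 and 281 for HHO3. Those of HHO1 lay between the time 0 arrays, and those of HHO2 and HHO3 lay above both time 0 arrays with log2 changes of 0.38 and 0.35 (adjusted p = 0.83 and 0.92).

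**Figure D3:**
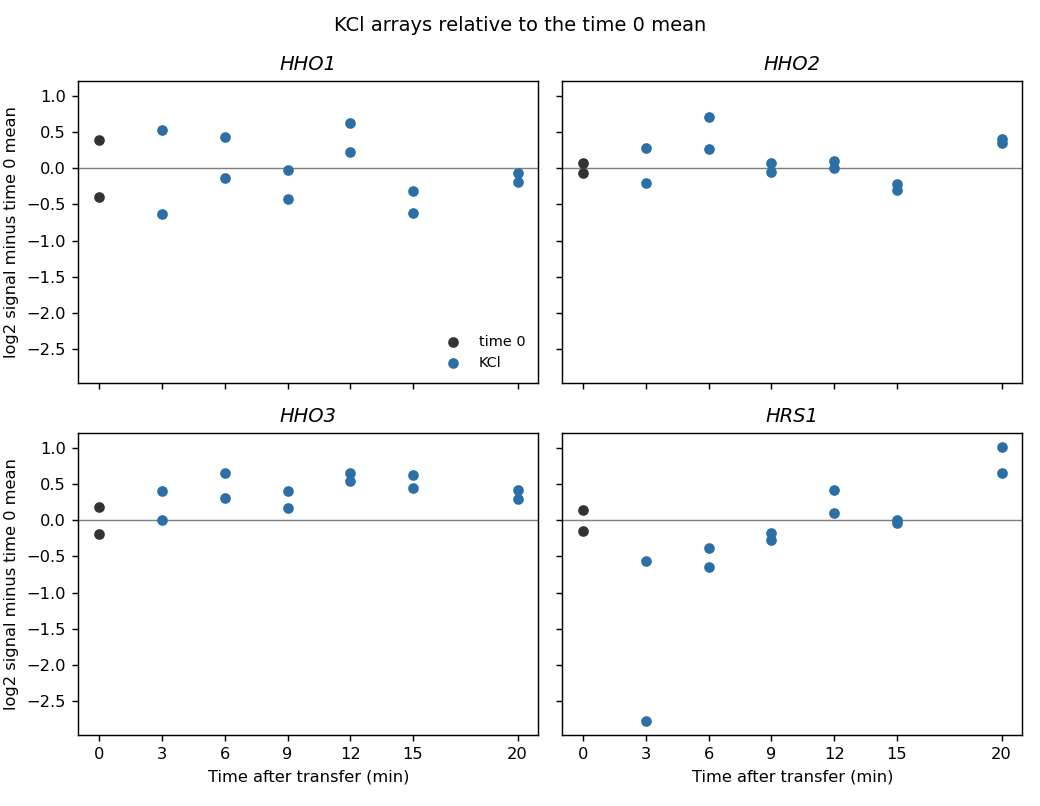
Log2 signal of each KCl array (blue) and time 0 array (black) less the mean of the time 0 arrays, against minutes after transfer, 1 panel per gene. The KCl array of HRS1 at 3 min lay at -2.78, the KCl arrays of HRS1 at 20 min at 1.02 and 0.65, and all other KCl arrays between -0.64 and 0.71.

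The slope of the KNO3 minus KCl difference over the 6 time points was 0.266 ± 0.026 log2 per min (standard error) for HHO1, 0.155 ± 0.015 for HHO3 and 0.125 ± 0.014 for HHO2. These 3 passed (adjusted p = 2.6e-06, 3.1e-06 and 1.1e-05 from limma), where 0.967% of all probe sets did. HRS1 had a slope of 0.117 ± 0.029 (adjusted p = 0.054). It was 0.163 without the KCl array at 38.1 and 0.072 without the other KCl array at 3 min, fits in which the pooled spread no longer holds the gap between these arrays. Without KNO3 replicate 1 of 6 min the slope of HRS1 was 0.126. Within each salt, the slope over 3 to 20 min crosses the 2 kinds of array, and 42.9% of all probe sets passed with KNO3 and 48.7% with KCl. All 4 genes passed with KNO3, between 0.124 (HHO2) and 0.252 (HHO1), and HRS1 alone with KCl (0.125).

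From 9 to 20 min, within 1 kind of array, the KNO3 slopes were 0.193 ± 0.031 for HHO1, 0.182 ± 0.035 for HRS1, 0.152 ± 0.018 for HHO3 and 0.149 ± 0.016 for HHO2, and all 4 passed (0.277% of all probe sets). The 4 values lay within a narrower range than over 3 to 20 min. The KCl slopes over the same points were -0.014 for HHO1, 0.028 for HHO2, 0.000 for HHO3 and 0.085 for HRS1, and none passed (1.34%). HRS1 alone passed an unadjusted p of 0.05 (adjusted p = 0.35 from limma), as did 10.4% of all probe sets. The difference of the slopes passed for HHO1 (0.208, adjusted p = 0.042), HHO2 (0.121, adjusted p = 0.021) and HHO3 (0.152, adjusted p = 0.01), where 0.325% of all probe sets did. For HRS1 it was 0.097 (adjusted p = 0.8), and it passed when the 18 arrays were fitted alone (adjusted p = 0.023).

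**Figure D4:**
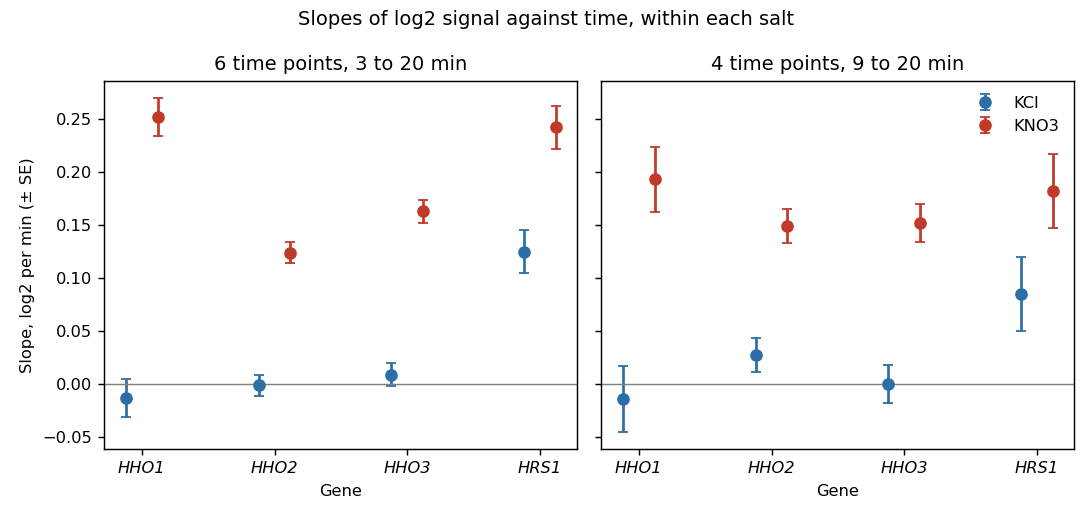
Slope of log2 signal against time in log2 per min, with its standard error, for KCl (blue) and KNO3 (red), over all 6 time points (left) and over 9 to 20 min (right). From 9 to 20 min the KNO3 slopes of the 4 genes ran from 0.149 to 0.193, and HRS1 had the highest KCl slope at 0.085.

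The change with KNO3 less that with KCl was also tested over each step between neighbouring time points, and none of the 4 genes passed. The share of all probe sets that passed was 0.607% from 3 to 6 min, 0.0528% from 6 to 9 min and from 9 to 12 min, 0.00879% from 12 to 15 min and 0.462% from 15 to 20 min. At an unadjusted p of 0.05 in limma, HHO1 passed from 3 to 6 min (1.56, standard error 0.50), HHO2 from 9 to 12 min (0.65, standard error 0.26) and HHO3 from 15 to 20 min (0.75, standard error 0.30), beside 10.9%, 8.25% and 9.89% of all probe sets. Without KCl replicate 2 of 3 min, the value from 3 to 6 min was 2.14 for HHO1 and -1.59 for HRS1. For HRS1 the KCl array at 38.1 was then the only one at 3 min. The mean signal of HRS1 with KNO3 itself rose over this step, from 206 to 338.

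As a share of the same gene's log2 difference at 20 min, HHO1 had reached 27.5%, 45.7%, 64.7% and 88.6% at the time points from 6 to 15 min. HHO2 had reached 3.64%, 24.9%, 60.9% and 89.5% at these times, HHO3 20.6%, 41.4%, 52.5% and 73.2%, and HRS1 29.7%, 62.3%, 79.6% and 96.7%. HHO2 thus had the lowest share at 6 and 9 min and HHO3 the lowest at 12 and 15 min. On the linear signal scale the courses lay closer together, with shares of 11.4% (HHO2) to 19.8% (HHO3) at 9 min and of 51.7% (HRS1) to 60% (HHO3) at 15 min. At 3 min the log2 share of HRS1 was 46.6%, above its share at 6 min, and those of the other genes ran from -10.1% to 5.6%. All these shares are descriptions without a test.

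**Figure D5:**
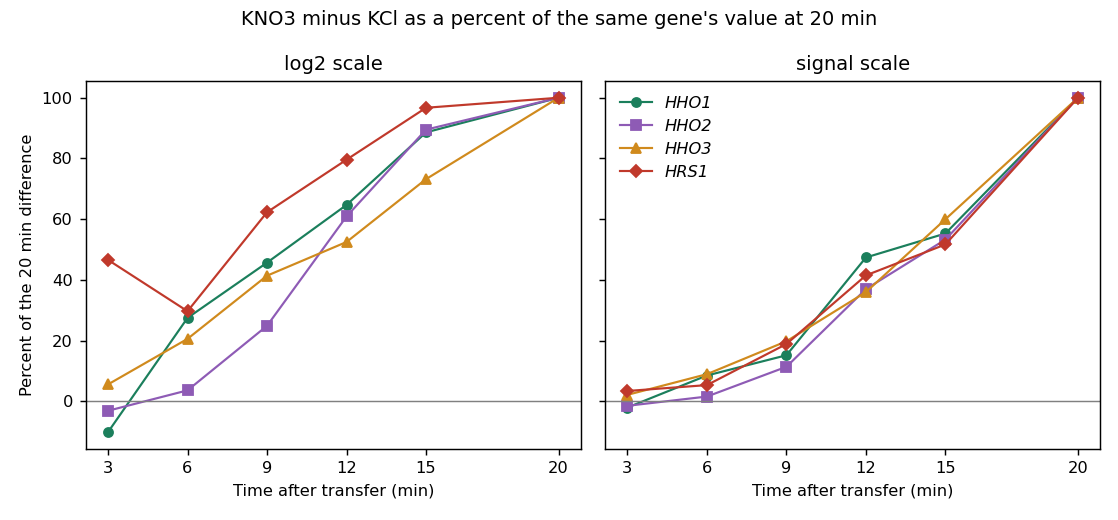
KNO3 minus KCl at each time point as a percent of the same gene's value at 20 min, on the log2 scale (left) and on the linear signal scale (right), from means of 2 arrays. At 15 min the shares ran from 73.2% to 96.7% on the log2 scale and from 51.7% to 60% on the signal scale.

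The log2 signals of the 4 genes moved together across the arrays. Over the 26 arrays Pearson's r between pairs of the genes was 0.822 to 0.945, over the 12 KNO3 arrays 0.924 to 0.966 and over the 12 KCl arrays -0.333 to 0.568. The arrays share their time course, so these are descriptions. Between replicates of a group, where time and salt are the same, r of the deviations over 13 groups was 0.523 for HHO1 with HHO2. It was negative for HRS1 with each of the other 3 (-0.611 to -0.399). In the KCl group at 3 min HRS1 gave 38.1 and 178, while the other 3 genes were higher on replicate 1 than on replicate 2. That group weighs heavily in the negative values, r without it was not computed, and nothing is read from their sign.

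Among 7377 other probe sets with 1 named gene and a mean signal above the 40th percentile, PGM (AT1G78050), a phosphoglycerate mutase gene, was the closest in pattern to HHO1, HHO2 and HHO3 over the 26 arrays (r = 0.943, 0.915 and 0.958). For HRS1 it was second (0.925), after AT2G24550 (0.946) and before the glycosyltransferase gene UGT73D1 (0.911). The next after PGM were AT1G64190 (0.916) and AT5G09800 (0.915) for HHO1, AT4G18340 (0.908) and AT5G03380 (0.898) for HHO2, and AT4G36010 (0.920) and AT4G18340 (0.910) for HHO3. The median r over the 7377 was between -0.04 and -0.01 for the 4 genes. By Spearman's rho the closest were AT1G64190 for HHO1 (0.810), AT5G03380 for HHO2 and HHO3 (0.828 for each) and AT2G24550 for HRS1 (0.934).

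Few relatives and pathway genes could be set beside the 4, since the annotation used here lists no gene for 8730 probe sets, and a gene counts below only where a probe set names it. Of 3 further HHO genes, 2 were named, and neither passed between KNO3 and KCl at any of the 6 time points. HHO5 was dim, with signals of 9.34 to 174, and its highest log2 difference was 1.58 at 12 min (adjusted p = 0.31 from limma, standard error 0.63). HHO6 lay between 153 and 380, with log2 differences from -0.64 at 15 min to 0.43 at 3 min. Of 23 other GARP genes, 4 were named (PHL2, PHL4, MYR2 and ARR18), of 23 regulators of the nitrate response 1 (NRG2), of 6 genes of nitrate uptake and cytokinin synthesis described as targets of these repressors 1 (NRT2.5), and of 15 phosphate starvation genes none. None of these 6 passed between KNO3 and KCl at any time point. Over HHO5, HHO6 and these 6, 5 of the 48 values had an unadjusted p under 0.05 in limma, 1 for each of HHO5, HHO6, MYR2, NRG2 and NRT2.5, where 6.21% to 15.5% of all probe sets passed at the 6 time points. The high-affinity nitrate transporter gene NRT2.5 had signals of 1290 to 4400 and log2 differences from -0.50 at 15 min to 0.75 at 6 min (standard error 0.28). Its mean over the 6 time points was 0.09 (standard error 0.11, adjusted p = 0.74). The median over PHL2, PHL4, MYR2 and ARR18 at 20 min was 0.44. PHL2 and PHL4 stood at -0.04 and -0.36, and MYR2 and ARR18 at 0.92 and 0.94 (standard errors 0.71 and 0.89). MYR2 and ARR18 were dim on some arrays, with lowest signals of 10.3 and 7.63. Over the 4 genes described here, which were chosen with earlier results of these data known, the median was 2.81. All other members of these lists were not analysed here.

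In the gene table of assembly TAIR10.1, no gene next to any of the 4 overlaps it. Of the 8 neighbours, 3 had a probe set with a named gene, AT1G68660 and AT1G68680 on either side of HHO2 and AT1G13310 beside HRS1. None passed between KNO3 and KCl at any time point in limma (1 time point each for AT1G68680 and AT1G13310 at an unadjusted p of 0.05), and their log2 differences at 20 min were 0.17, 0.07 and -0.55 (standard errors 0.17, 0.20 and 0.67).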

How the data were processed

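The ATH1 signal intensity values that the authors deposited are MAS5 values on a linear scale for 22810 probe sets on 26 arrays. The methods state a target median, but the 26 arrays share a 2% trimmed mean of 500.0, which is another scale. After 64 control probe sets were left out, log2 signals of the 13 groups entered 1 limma model (version 3.58.1, R 4.3.3; eBayes trend, 13 residual and 7.41 prior degrees of freedom). P-values were adjusted by Benjamini-Hochberg over 22746 probe sets within each comparison, with a threshold of 0.05. The limma test at 9 min and the slope contrast were tested on simulated data with known changes. Of the probe sets, 13513 had 1 gene listed, 503 had several and 8730 had none.

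The 4 genes, the gene lists, the tests and the alternatives were chosen with earlier results of these data known. Other named genes are the 3 most alike in pattern for each of the 4; genes of the lists and neighbours that did not pass were named after their values were seen. The alternatives dropped the intensity trend, dim probe sets (up to the 40th percentile of mean signal) or 1 array at a time. Others added 32 to each signal, quantile-normalized the arrays, used a replicate block, split the 8 and 18 arrays or fitted time points alone. Further ones changed the scale or range of the slope, or used a model patterned on the sequential linear model of the methods. The first step of that model was taken at an unadjusted p of 0.01, and its second step tested KNO3 minus KCl at each time point. Arrays have no read depth, and precision is limited by their number.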

Additional observations from a re-analysis of the deposited data

Results flagged for a closer look

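For 3 of the 4 genes the difference between KNO3 and KCl changed with time by a test of that change itself, the slope of the difference over the 6 time points. It was 0.266 log2 per min for HHO1, 0.125 for HHO2 and 0.155 for HHO3, all past the threshold in limma and in each of the 8 alternatives run for the slope. The slope of HRS1, 0.117, passed in 4 of the 8.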

How the results depend on the processing

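The difference between KNO3 and KCl kept its direction and its call for all 4 genes at 15 and 20 min in each of the 9 alternatives and with any array left out. The numbers of the 4 genes called stayed within 1.5 times in 155 of 166 recomputed counts other than those that left out an array. A count of 0 in both fits is taken as within, and so are 2 against 3 and 3 against 4. The calls that HRS1 gained at 9 min and for the slope in some alternatives are therefore not seen in it. Without the intensity trend the count at 9 min fell to 0 for KNO3 against KCl and to 1 for KNO3 against time 0. Under quantile normalization 1 gene passed at 6 min for KNO3 against KCl, 1 at 3 min, 1 at 6 min and 1 at 9 min for KNO3 against time 0, and 0 at 6 min for KCl against time 0. The sequential model on log2 signals called 1 at 3 min and 1 at 6 min. Within the 18 arrays 1 gene passed for KCl against time 0 at 20 min, and the mean over the 3 and 6 min points within the 8 arrays alone, which leaves out the later time points, called 0. Quantile normalization also turned the sign of 3 changes against time 0 in KCl that did not pass in either fit, to -0.0863 at 3 min and -0.0546 at 9 min for HHO2 and to -0.807 at 6 min for HHO1. The cause of these changes was not tested.

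With 1 array left out in turn, the genes called between KNO3 and KCl numbered 0 to 1, 0 to 1, 0 to 3 and 2 to 4 at the time points from 3 to 12 min. They numbered 0 to 1, 1 to 3 and 1 to 3 for KNO3 against time 0 at 3, 6 and 9 min, 0 to 1, 0 to 2 and 0 to 1 for KCl against time 0 at 3, 6 and 20 min, and 0 to 2 for the step from 3 to 6 min. A change of sign arose only in values that did not pass. For KNO3 against KCl at 3 min the range was -1 to 0.163 for HHO1, -0.296 to 0.185 for HHO2 and -0.209 to 0.52 for HHO3, and at 6 min it was -0.153 to 0.284 for HHO2. For KNO3 against time 0 at 3 min it was -0.177 to 0.143 for HHO2. For KCl against time 0 the range of HHO1 was -0.63 to 0.535, -0.25 to 0.545, -0.619 to 0.176 and -0.523 to 0.273 at 3, 6, 9 and 20 min in turn. That of HHO2 was -0.202 to 0.279, -0.0522 to 0.0841 and -0.0102 to 0.126 at 3, 9 and 12 min, and that of HRS1 -0.148 to 0.13 at 15 min.

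Same-numbered replicates of different groups deviated together only weakly over 78 pairs of groups (r -0.19 to 0.26, median 0.02). The r was above 0.1 in 18 pairs and below minus 0.1 in 7. The arrays were therefore not treated as paired, but these values cannot tell whether some same-numbered arrays belong together. A replicate block changed no call of the 4 genes and gave 556, 105, 93, 171, 277 and 168 calls over all probe sets from 3 to 20 min. Counts over the 22746 probe sets moved more: 518, 94, 90, 157, 272 and 169 were called between KNO3 and KCl from 3 to 20 min, and 17 to 688, 3 to 243, 14 to 157, 33 to 386, 70 to 453 and 118 to 456 over the 6 alternatives that tested all of them. The sequential model called 39.3% to 39.6%, 14.9% to 25.9%, 16.3% to 16.6%, 22.9% to 26.1%, 29% to 32.9% and 15% to 15.8% of the 2162 (linear signals) or 1974 (log2 signals) probe sets left by its first step. The spread of a gene is pooled over the 13 groups of 2 arrays, so that an array far from its replicate widens the error at every time point. The dim basal signal of HHO1 limits the precision of its folds.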
